A study of Homo sapiens with 2 samples.

Results

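FAS, its ligand FASLG and the 4 TRAIL receptor genes TNFRSF10A, TNFRSF10B, TNFRSF10C and TNFRSF10D were examined for TP73 occupancy in TL-Om1 cells, a line established from human adult T-cell leukaemia. A peak counted as a member when its summit lay in one of the 6 gene spans of hg19, or within 20 kb of it, and it was assigned to the nearest span. This gave 10 of the 18908 peaks of the list: 1 for FAS, 2 for FASLG, 5 for TNFRSF10B, 2 for TNFRSF10A, and 0 each for TNFRSF10C and TNFRSF10D. The study has 2 groups, each of 1 library. The TP73 ChIP library was precipitated with the antibody ab14430 against TP73, and the input library is whole cell extract with no antibody. Cells of both groups were TL-Om1 kept in RPMI-1640 with 10% FBS and Pen/Strep, then fixed for 10 min with formaldehyde; the labels name no treatment. Reads were single-end, 50 bases long. With 1 ChIP library there is no replicate error for any value below, TL-Om1 stands as a single line, and the deposited p-values compare the reads of a pair of libraries, not cultures. The list holds no expression values, so the labelled cell type was not checked against markers.

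Death receptors are surface proteins of the TNF receptor family that pass a killing signal into the cell. FAS is engaged by FAS ligand, the product of FASLG, which activated T cells and natural killer cells use to kill targets and to limit their own numbers. TNFRSF10A (DR4) and TNFRSF10B (DR5) bind the ligand TRAIL and carry an intracellular death domain that recruits FADD and caspase-8. TNFRSF10C (DcR1), which is anchored in the membrane by a lipid, and TNFRSF10D (DcR2), whose death domain is truncated, bind TRAIL without passing the death signal and are called decoy receptors. TP73 is a member of the p53 family and recognises the same kind of DNA site as p53. FAS and TNFRSF10B are textbook p53 targets, with p53 elements described in the first intron of each.

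The sequence before the starts of FAS and FASLG is shown because these were the members with RefSeq windows here. FAS held the strongest peak of the 10 and FASLG had none in its span. Each stretch is the 250 bases before a transcript start in RefSeq on GRCh38.p14, plus strand. RefSeq windows were matched by symbol for 2 of the 6 members. The peaks are on hg19, and positions were not carried from one build to the other. A sequence and a peak can thus be set side by side only by distance from a gene start. That distance is counted from a listed RefSeq start for a sequence and from a span edge rounded to 1 kb for a peak. The offset between these starts is not known here. Capitals mark a stretch of 20 bases with at most 2 mismatches to a pair of adjoining p53-family decamers, the degenerate consensus of the family, which reads the same on both strands. The windows lie at chr10:88990548-88990797 for the first FAS start, chr10:88991181-88991430 for the FAS start farthest downstream in the table, and chr1:172658853-172659102 for FASLG.
FAS, first listed start: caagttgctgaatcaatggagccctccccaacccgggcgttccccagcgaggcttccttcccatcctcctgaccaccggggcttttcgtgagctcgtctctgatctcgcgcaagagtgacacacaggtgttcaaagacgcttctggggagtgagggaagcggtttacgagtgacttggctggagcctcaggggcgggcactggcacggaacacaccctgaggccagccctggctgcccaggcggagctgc
FAS, downstream listed start: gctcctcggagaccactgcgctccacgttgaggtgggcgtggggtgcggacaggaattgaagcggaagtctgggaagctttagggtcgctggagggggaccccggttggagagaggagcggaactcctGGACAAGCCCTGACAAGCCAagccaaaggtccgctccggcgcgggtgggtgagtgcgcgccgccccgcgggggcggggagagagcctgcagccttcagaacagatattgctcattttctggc
FASLG: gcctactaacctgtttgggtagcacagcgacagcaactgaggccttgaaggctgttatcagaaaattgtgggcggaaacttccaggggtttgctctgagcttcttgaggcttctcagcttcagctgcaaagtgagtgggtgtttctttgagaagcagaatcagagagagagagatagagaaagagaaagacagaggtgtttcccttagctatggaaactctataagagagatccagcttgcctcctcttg

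In the downstream FAS window, GGACAAGCCC matched the decamer with 0 mismatches and the adjoining TGACAAGCCA matched it with 2. The 20 bases began 511 bases after the first listed FAS start, which is not the rounded start used for peaks. An exact decamer was present in 5.57% of the 35116 windows of this length in the table, and a 20-base stretch with at most 2 mismatches in 0.561%. These shares are per window, not per gene, and 3 windows were searched for FAS against 1 for FASLG. The window before the first FAS start had 0 exact decamers and at best 5 mismatches over 20 bases, as did a window 116 bases further on that overlaps it and is not shown. The FASLG window had 0 exact decamers and at best 4 mismatches. The FAS windows held 14 CpG dinucleotides before the first start, 11 in the overlapping window and 19 in the downstream window, against 2 before the FASLG start and a median of 11 over all windows. A match describes the letters of these windows only, and whether the 20 bases lie under the summit was not tested.

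Among the 10 member peaks, the FAS peak was the strongest. It lay on chromosome 10 at 90750323 to 90751341, with its summit at 90751073, inside the gene and 1.07 kb after its start. Gene starts are known here to 1 kb only. The authors' fold at the summit, which divides the ChIP pileup by the control background, was 62.4, and the −log10 q-value was 366.9. The summit was covered by 255 ChIP reads (95% exact Poisson interval 224.7 to 288.3), against 3 control reads. These read numbers were solved from each peak's fold and p-value, with a single solution at all 10 members, and intervals cover counting error only. By q-value the FAS peak ranked 128 of all 18908 peaks and 7 of the 800 on chromosome 10. By fold it ranked 243. The median peak of the whole list had a fold of 11.3 and 43 ChIP reads, and the highest read number in the list was 284. The upper limit of the FAS interval lies above that number. Whether duplicate removal limited the reads at a summit was not tested, and a Poisson interval does not allow for such a limit. The FAS peak was 1019 bp wide, rank 60 of the list by width, against a median of 255 bp. Its summit sat 750 bp into the peak, toward the end that points into the gene. Width, fold and reads come from the same pileup and are not separate evidence of strength.

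The FAS peak was the only one in the gene or its margins of 20 kb. A window of 1 Mb centred on its summit held 8 peaks. The second highest of these had a fold of 53.6 and 186 ChIP reads. The nearest other summits lay 159.4 kb below it, with a fold of 10.3 and 35 ChIP reads, and 172.5 kb above it, with a fold of 15.4 and 78 ChIP reads. Of 18883 intervals between neighbouring summits over the list, 4562 were at least as long as the lower and 4282 as the upper. The median interval was 48.2 kb. By number, the lower was longer than 75.8% of intervals and the upper than 77.3%. Intervals so long made up 80.1% and 78.5% of the length between summits. In the RefSeq gene table ACTA2, which encodes smooth muscle actin, and the antisense RNA gene FAS-AS1 overlap FAS, so a peak near the FAS start is not assigned to FAS by position alone. A window of 66 kb, the length of FAS with its margins, held at least 1 summit in 24.3% of all such windows of the genome, and a summit with the fold of FAS or higher in 0.510%. These windows run across assembly gaps and gene-poor DNA.

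**Figure D1:**
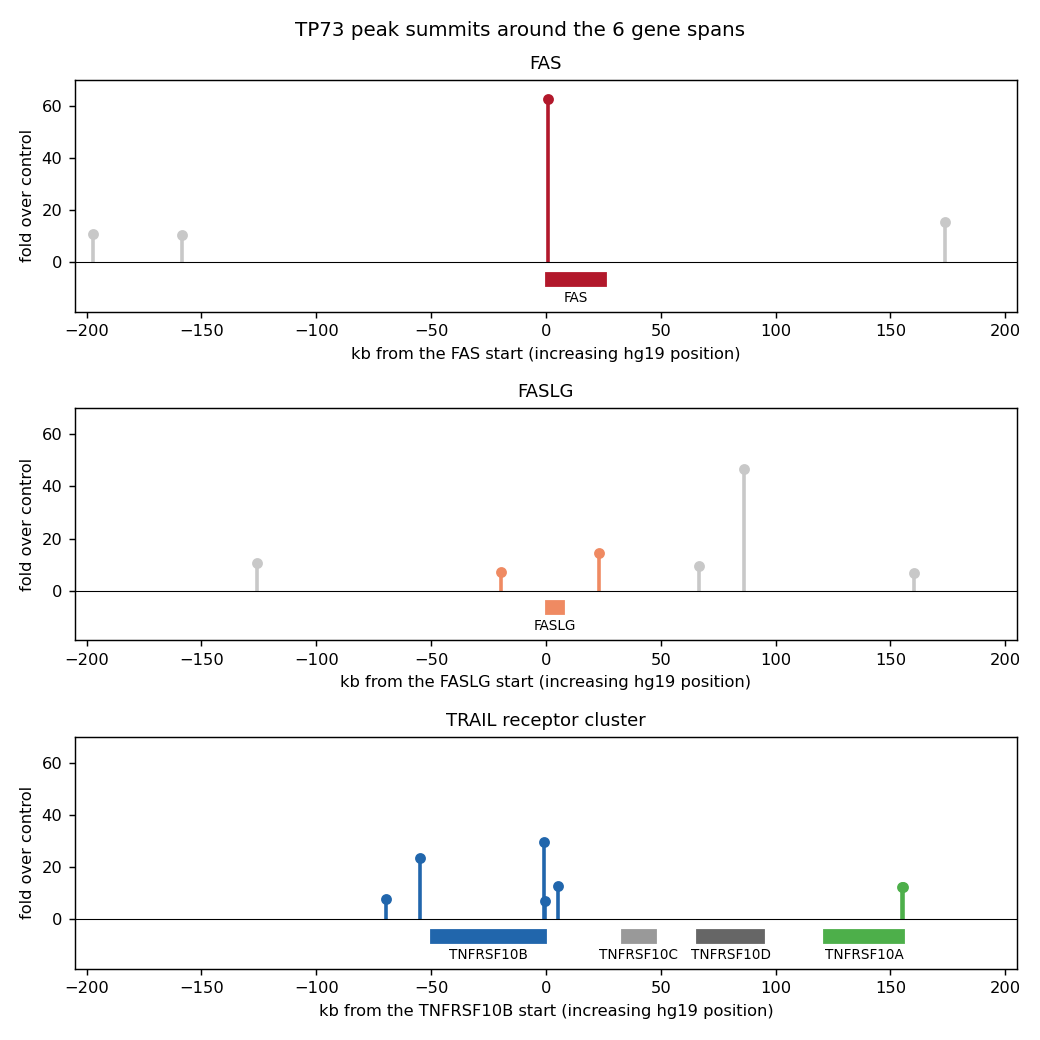
Fold over control (vertical axis) of each TP73 summit within 200 kb of the start of FAS, FASLG and TNFRSF10B (horizontal axis, kb along increasing hg19 position), with member peaks in the colour of their gene, other peaks in grey and gene spans as blocks. FAS has 1 tall summit at its start, and TNFRSF10C and TNFRSF10D have none.

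FASLG had no summit in its span of 8 kb. Its 2 member peaks lay on either side of the gene. The peak at 172650861 to 172651150 on chromosome 1 had its summit 14.98 kb beyond the end of the gene, with a fold of 14.6, 50 ChIP reads (95% exact Poisson interval 37.1 to 65.9) against the genome-wide background of 2.41 control reads, and a −log10 q-value of 41.7. The peak at 172608530 to 172608685 had its summit 19.41 kb before the start, with a fold of 7.32, 29 ChIP reads (19.4 to 41.6) against 3 control reads, and a −log10 q-value of 15.4. The downstream peak had 1.72 times the reads of the upstream peak (95% interval 1.07 to 2.83, exact conditional binomial). In fold, the downstream peak stood at percentile 64.6 of all peaks and the upstream peak at percentile 12.9. The upstream peak was just inside the margin of 20 kb, and the next summit outside it on the downstream side was 58.7 kb beyond the gene. The neighbouring protein-coding genes are SUCO and TNFSF18, which encodes the TNF-family ligand GITRL. A stronger peak lay farther off, 86.5 kb after the FASLG start, with a fold of 46.6 and 169 ChIP reads, and is not a member. A window of 48 kb, the length of FASLG with its margins, held a summit in 19.3% of all windows, and a summit with a fold of 14.6 or higher in 8.69%.

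The 4 TRAIL receptor genes lie side by side on chromosome 8, in the order TNFRSF10B, TNFRSF10C, TNFRSF10D, TNFRSF10A along increasing position. TNFRSF10B, which encodes the TRAIL receptor DR5, was assigned 5 peaks by the rule of the nearest span, the most of the 6 genes. Other genes of the RefSeq table overlap it, among them TNFRSF10B-AS1, so position alone does not tie these peaks to TNFRSF10B. The strongest, at 22925957 to 22926388, had its summit in the gene, 0.86 kb after the start. Its fold was 29.8 and its −log10 q-value 118.6. It had 103 ChIP reads (95% exact Poisson interval 84.1 to 124.9) against the genome-wide background of 2.41 control reads. A second peak in the gene, at 22926475 to 22926911, had its summit 0.39 kb after the start. It had 41 ChIP reads (29.4 to 55.6) against 5 control reads, a −log10 q-value of 19.0 and a fold of 6.83. This second peak had the lowest fold of the 10, at percentile 7.49 of all peaks, but its reads stood at percentile 46.6. Its local control background was the highest of the 10 members. The strongest peak had 2.51 times the ChIP reads of its neighbour (95% interval 1.73 to 3.70, exact conditional binomial). The pair of summits were 469 bp apart and 86 bases lay between the peaks, so whether they are separate sites was not tested.

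The other 3 peaks assigned to TNFRSF10B lay outside its span, 2 of them past its far end. Whether these peaks lie inside another gene was not examined. At 22932252 to 22932477, a summit 5.37 kb before the gene start had 44 ChIP reads, a −log10 q-value of 34.1 and a fold of 12.9. Past the other end of the gene, the peak at 22871944 to 22872216 had its summit 4.92 kb beyond the span, with 81 ChIP reads (95% exact Poisson interval 64.3 to 100.7), a −log10 q-value of 85.6 and a fold of 23.5. The reads of the strongest peak in the gene were 1.27 times those of this flanking peak, with a 95% interval of 0.941 to 1.72, so a difference beyond counting error was not detectable. The last peak, at 22857177 to 22857318, was 142 bp wide, the shortest width in the list, with a fold of 7.74 and 26 ChIP reads. It lay 19.77 kb beyond the span, just inside the margin. All 3 had the genome-wide background of 2.41 control reads. A window of 90 kb, the length of TNFRSF10B with its margins, held a summit in 30.3% of all windows, and a summit with a fold of 29.8 or higher in 6.11%.

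TNFRSF10A, which encodes the TRAIL receptor DR4, carried 2 peaks, both in the gene near its start. They lay at 23082047 to 23082292 and 23082527 to 23082757, with summits 0.82 and 0.37 kb after the start. Each had 42 ChIP reads (95% exact Poisson interval 30.3 to 56.8) against the genome-wide background of 2.41 control reads. The −log10 q-value of each was 31.6 and the fold 12.3. Both stood near the middle of the list, at percentile 55.7 by fold. The summits were 456 bp apart with 234 bases between the peaks, a ratio of reads of 1 (95% interval 0.636 to 1.57). TNFRSF10A and TNFRSF10B, the TRAIL receptor genes with a death domain, each had 2 summits near the start. FAS, which also encodes a death domain, had 1. With starts known to 1 kb only, distances from the start do not separate the 3 genes. In TNFRSF10B the summit farther from the start had more reads, and in TNFRSF10A the reads were equal. Over the whole list, 4.80% of peaks had another summit within 500 bp, and 4 of the 10 member peaks did. A window of 75 kb held a summit in 26.6% of all windows, and a summit with a fold of 12.3 or higher in 15.3%.

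**Figure D2:**
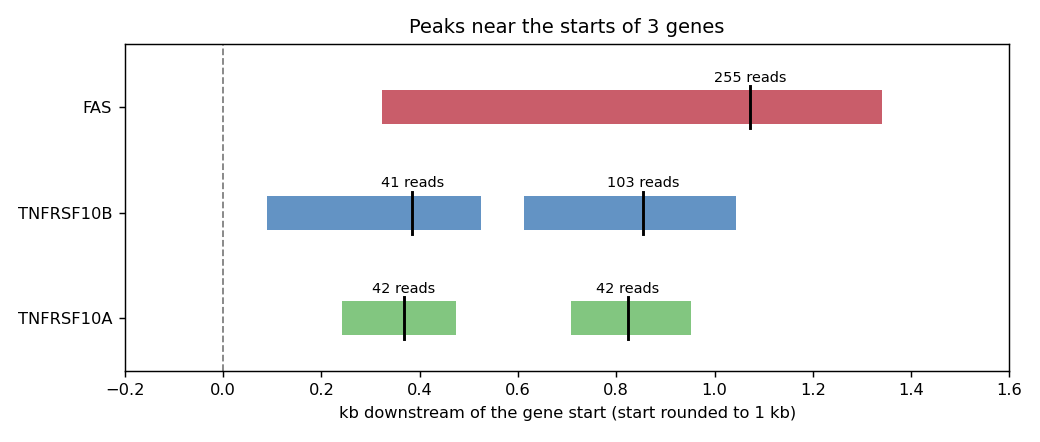
Peaks near the starts of FAS, TNFRSF10B and TNFRSF10A, drawn from their first to last base in kb downstream of each gene start (horizontal axis, start rounded to 1 kb), with black ticks at the summits and the ChIP reads above them. FAS has a single broad peak with 255 reads, TNFRSF10B a pair with 103 and 41, and TNFRSF10A a pair with 42 each.

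The decoy receptor genes TNFRSF10C and TNFRSF10D had no summit in the gene and none assigned to them. The nearest summits to TNFRSF10C lay 27.6 kb below its span, in front of TNFRSF10B, and 107.2 kb above it, in TNFRSF10A. For TNFRSF10D the nearest were 60.6 kb below and 60.2 kb above. Both genes sat in a stretch of 149.8 kb without a summit. Such a stretch is common, since 4817 of 18883 intervals were as long or longer and intervals of this length made up 81.4% of the length between summits. Windows of their lengths, 55 and 69 kb, held a summit in 21.4% and 25.1% of the genome, so most windows of these lengths held none. The weakest peak of the whole list had 18 ChIP reads, and weaker enrichment at the decoy genes was not detectable in a list of called peaks. Beyond TNFRSF10A the next summit was 1142.5 kb past the second peak of that gene, a gap longer than 98.1% of intervals. Intervals of that length or longer made up 26.0% of the length between summits.

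By the highest reads of each gene, the order was FAS with 255, TNFRSF10B with 103, FASLG with 50 and TNFRSF10A with 42. FAS had 2.48 times the reads of TNFRSF10B (95% interval 1.96 to 3.14, exact conditional binomial) and 6.07 times those of TNFRSF10A (4.37 to 8.63). TNFRSF10B had 2.45 times those of TNFRSF10A (1.70 to 3.60). Between FASLG and TNFRSF10A no difference beyond counting error was detectable, with a ratio of 1.19 (0.774 to 1.84). The strongest peak was picked in each gene, and the intervals do not allow for that pick or for differences between cultures. Nor do they allow for any limit on reads at a summit, which would bear most on FAS. Copy number of these regions in TL-Om1 was not measured. The control background at the strongest summits was 3 reads for FAS and the genome-wide 2.41 for TNFRSF10B, FASLG and TNFRSF10A. The value 2.41 is the lowest in the list, shared by 9820 of 18908 peaks, so it does not measure control reads at a summit.

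**Figure D3:**
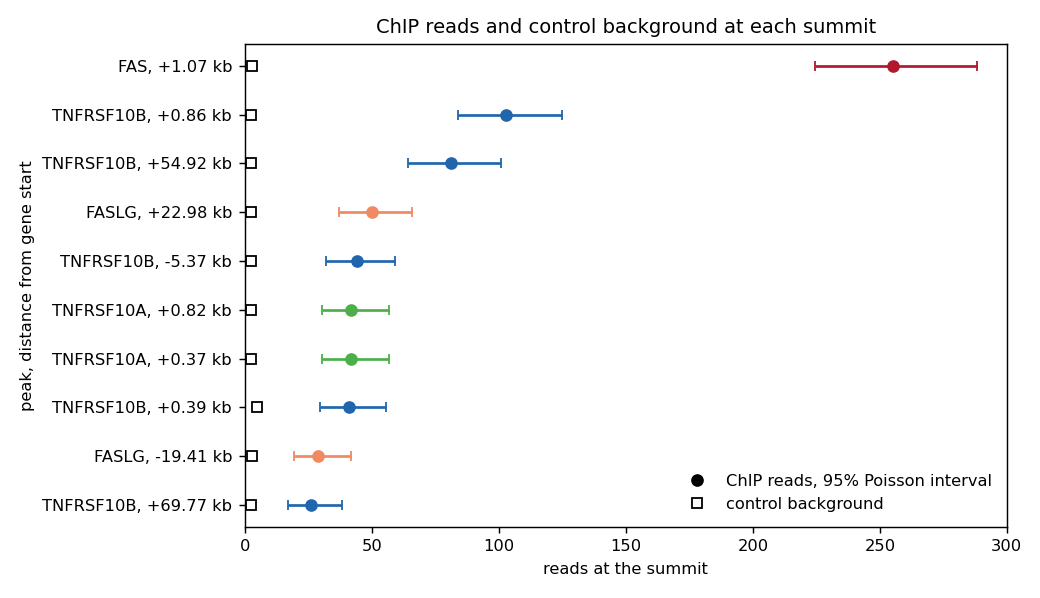
ChIP reads at each of the 10 member summits with 95% exact Poisson intervals (filled circles) and the control background taken for each (open squares). The peaks run from 255 ChIP reads at FAS to 26 at the outermost peak of TNFRSF10B. The control background stays between the genome-wide 2.41 and 5 reads.

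As a set, the 10 peaks ranged in fold from 6.83 to 62.4 with a median of 12.6, against 11.3 over all peaks. Their median of 43 ChIP reads equalled that of the whole list. A fold of at least 10 was reached by 7 of the 10 peaks, against 59.8% of all peaks, a fold of at least 20 by 3, against 23.0%, and a fold of at least 50 by 1, FAS, against 3.54%. The first and second of these shares are close to the background, and the last rests on 1 peak. The 5 peaks inside gene spans, of FAS, TNFRSF10B and TNFRSF10A, had summits 0.37 to 1.07 kb after gene starts that are rounded to 1 kb. That range is read from these same peaks. The share of all peaks so close to a start was not analysed here. Peaks lay in or within 20 kb of 4 of the 6 genes, where windows of the same lengths held a summit in 19.3% to 30.3% of the genome. Summits lay inside the spans of 3 genes. Windows as long as the spans without margins held a summit in 11.8% of the genome for FAS, 19.8% for TNFRSF10B and 15.0% for TNFRSF10A, which had one inside, and in 4.18% for FASLG, 7.33% for TNFRSF10C and 12.9% for TNFRSF10D, which had none. The 4 TRAIL receptor genes share a region, so the 6 counts are not independent, and they were not tested.

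**Figure D4:**
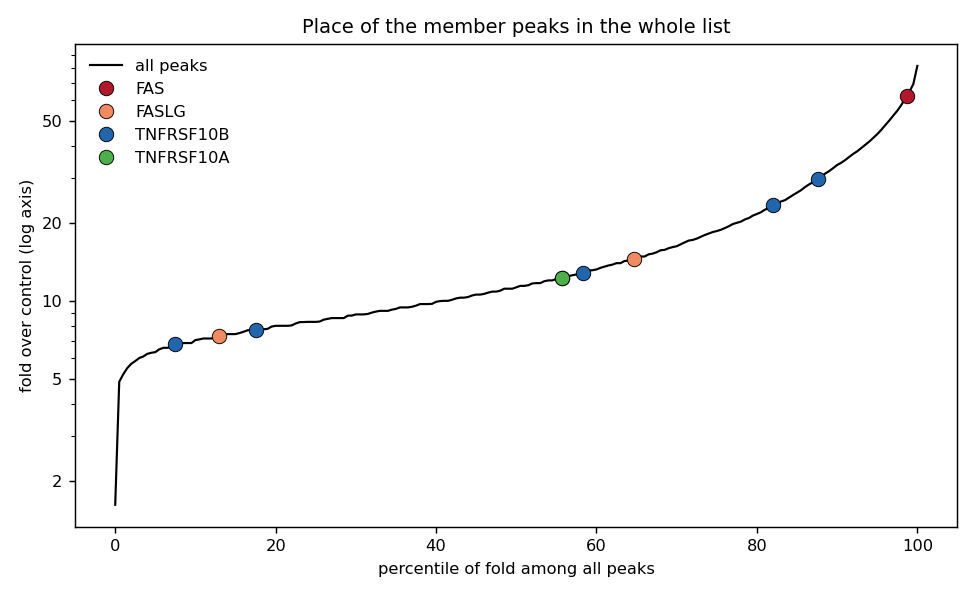
Fold over control (vertical log axis) against its percentile among all 18908 peaks (black line), with the 10 member peaks as coloured circles; the TNFRSF10A circles coincide. FAS lies at percentile 98.7, the strongest TNFRSF10B peak at 87.6, and the other members spread between 7.49 and 82.0.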

How the data were processed

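The data are the authors' deposited peak list of 1 TP73 ChIP library on hg19. The tools named per the submitters' processing notes are MACS2 version 2.1.1.2016030, Bowtie2 and SAMtools; their parameters are not given in the sources used. In the deposited list each peak has a fold enrichment (a ratio), a −log10 p-value, a −log10 q-value and a score, which was not used, all of them the authors' values. The labels name whole cell extract as background, but all 18908 peak names contain IgG, so "control" means whichever library the caller used.

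ChIP reads were solved from fold, taken as (pileup + 1) / (background + 1), and p-value, as a Poisson tail, for backgrounds of at least 1 read. The read step, 0.975, was fitted on 9820 peaks at the lowest common background. All of 8987 other peaks with a single solution gave whole reads within 0.01 (100%). On 1974 simulated peaks made with the same formulas, the solving recovered the reads of 100% and the background of 100%; this checks the solving, not whether the formulas hold. Gene spans are rounded to 1 kb. Positions are counted from 1. The orientation of the TRAIL receptor genes is from general knowledge, that of FAS and FASLG from RefSeq (GRCh38.p14), which also gave names and sequences. Every member and every peak assigned to it is named.

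Members and lists were chosen with earlier results of these data known. No test was run over the members. The planned motif search in peaks and the count over a wider death receptor list need hg19 sequence or annotation and were not run; the search in RefSeq windows and the interval lengths between summits were added. Alternatives were other margins, thresholds, merging and overlap. Work was run with scipy 1.17.1, pandas 2.3.3 and numpy 2.4.6 under Python 3.11.15, and figures with matplotlib 3.10.9.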

Additional observations from a re-analysis of the deposited data

How the results depend on the processing

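Of the 10 peaks, 5 remained inside the spans with a margin of 0 kb (TNFRSF10B 2, FASLG 0), and at 10 kb FASLG had 0. With a −log10 q-value of at least 50, 3 peaks were left (TNFRSF10B 2, FASLG 0, TNFRSF10A 0). A fold of at least 10 left 1 for FASLG and 3 for TNFRSF10B. Merging peaks closer than 500 bp left 8 peaks (TNFRSF10B 4, TNFRSF10A 1), with the pair near the start of each of these genes joined. A limit of at least 50 ChIP reads, chosen after seeing the data, left 4 peaks (FASLG 1, TNFRSF10B 2, TNFRSF10A 0). FAS had 1 peak, and TNFRSF10C and TNFRSF10D had 0, under every margin, threshold, merging and overlap run. Stricter thresholds, merging and smaller margins cannot raise a count of 0. At a margin of 50 kb, the summit 27.6 kb below TNFRSF10C stayed with TNFRSF10B, its nearest span. The summits nearest to TNFRSF10D, 60.6 and 60.2 kb away, were out of reach. These runs are thus little test of the 0 counts. On chromosomes 1, 8 and 10 alone, the share of windows with a summit was 26.4% at the length of FAS, 21.1% for FASLG, 32.7% for TNFRSF10B, 23.4% for TNFRSF10C, 27.5% for TNFRSF10D and 29.1% for TNFRSF10A. Ranking by q-value or within the chromosome moved 18 of 20 percentiles of single peaks by more than the binomial interval over all 18908 peaks; that interval is narrow and does not cover counting error of the reads. The second peak in TNFRSF10B moved from percentile 7.49 by fold to 26.7 by q-value. The ChIP reads of all 10 members were the same with a read step fitted on other chromosomes. The cause of these changes was not tested beyond the limits themselves. No paired analysis was possible because there is 1 ChIP library and 1 control, and no library could be left out. The weakest member rests on 26 ChIP reads.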
